A study of Mus musculus with 5 samples.

Results

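The genes followed here are the transcription factor NRF2 (encoded by Nfe2l2), its cytosolic sensor KEAP1, the antioxidant and detoxifying enzymes that NRF2 is known to control, and the wider glutathione and thioredoxin systems. They were taken by symbol from a list of 46 genes, and all 46 were found among the 17657 protein-coding genes of the deposited table. After a filter on low counts 44 of the 46 were tested, among 12957 genes in all, and Gsta2 and Gstt1 were not. Epidermal stem cells of male C57BL/6 mice, with an age of 8 weeks in the labels, had been grown in the keratinocyte medium KGM2. The comparison was between Angptl4 knockout mice (KO, 2 libraries) and wild-type mice (WT, 3 libraries). Angptl4 encodes a secreted inhibitor of lipoprotein lipase, and the labels give neither the deleted part of the gene nor the animal or culture behind each library. P-values therefore measure the spread between these libraries, which may be technical.

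In resting cells KEAP1 binds NRF2 and hands it to a CUL3 ubiquitin ligase for destruction. Oxidants and electrophiles modify KEAP1, NRF2 accumulates, pairs with a small MAF protein and binds antioxidant response elements in the promoters and enhancers of its targets. Because this control acts mainly on the NRF2 protein, the Nfe2l2 transcript is not a direct reading of NRF2 activity. Glutathione, made by glutamate-cysteine ligase (Gclc, Gclm) and glutathione synthetase (Gss), is used by peroxidases and transferases and is returned to its reduced form by glutathione reductase (Gsr) at the cost of NADPH. Thioredoxin is returned to its reduced form by thioredoxin reductase (Txnrd1), also from NADPH. In epidermis these systems handle reactive oxygen from metabolism, ultraviolet light and inflammation.

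The libraries held 20283084 to 20773407 expected counts, so 1 CPM (the usual counts-per-million unit, scaled by library size) stands for about 21 counts. Angptl4 itself was at 6.97, 5.76 and 4.13 CPM in WT1, WT2 and WT3, against 0.83 and 1.06 CPM in the KO libraries 1 and 2, in the direction of the labels. The KO libraries differed from each other far more than the WT libraries did (biological coefficient of variation 28.9% against 5.21%). Keratinocyte markers summed to 45400 to 46700 TPM (a share of all transcripts, scaled by transcript length) in WT and to 55800 and 43800 TPM in KO1 and KO2. That sum comes mostly from Krt14, Krt5 and Krt6a. Of the 12 keratinocyte markers 3 rose, 2 fell and 7 did not pass (edgeR, adjusted p under 0.05). Over all tested genes 20.4% were higher and 20.4% lower. Krt15, Itgb4 and Cdh1 rose, and Trp63 and Itga6 fell (log2 change -0.725 and -0.914). Without WT1, WT2 and WT3, 0, 0 and 1 were higher and 2 were lower each time. The hair follicle keratin Krt15 was near 0, at 0.11 to 0.58 TPM in WT and 3.08 and 1.66 TPM in KO1 and KO2. The 12 fibroblast markers summed to 215 to 228 TPM in WT and 366 and 177 TPM in KO1 and KO2, mostly from Fbln2 and Fbln1. Without WT1, WT2 or WT3, the number of genes passing over the whole table fell from 5286 to 1957, 2282 and 2244.

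The glutathione and thioredoxin genes did not move as a block. Of the 44 tested, 10 fell, 8 rose and 26 did not pass (adjusted p under 0.05 by edgeR's quasi-likelihood test). That is 40.9% of the members, against 40.8% of all tested genes, with 20.4% of all tested genes higher and 20.4% lower. The share of members called is thus that of the table as a whole, and the results below are about which members moved and how far. The genes that fell were Gsr, Txnrd1, Prdx3, Prdx6, Gsta3, Gsta4, Nqo1, Fth1, Sod2 and Nfe2l2. Those that rose were Gsto1, Gstm5, Mgst1, Mgst2, Gpx2, Gpx3, Sod3 and Aldh3a1. The median log2 change of the 44 was -0.09, against 0.02 over all tested genes. The members' medians were 0.01 in KO1 and -0.30 in KO2, against -0.01 and 0.01 over all tested genes. Without WT1, WT2 or WT3 the counts were 4 higher and 6 lower each time. Without KO1 they were 9 and 22, and without KO2 17 and 17.

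**Figure D1:**
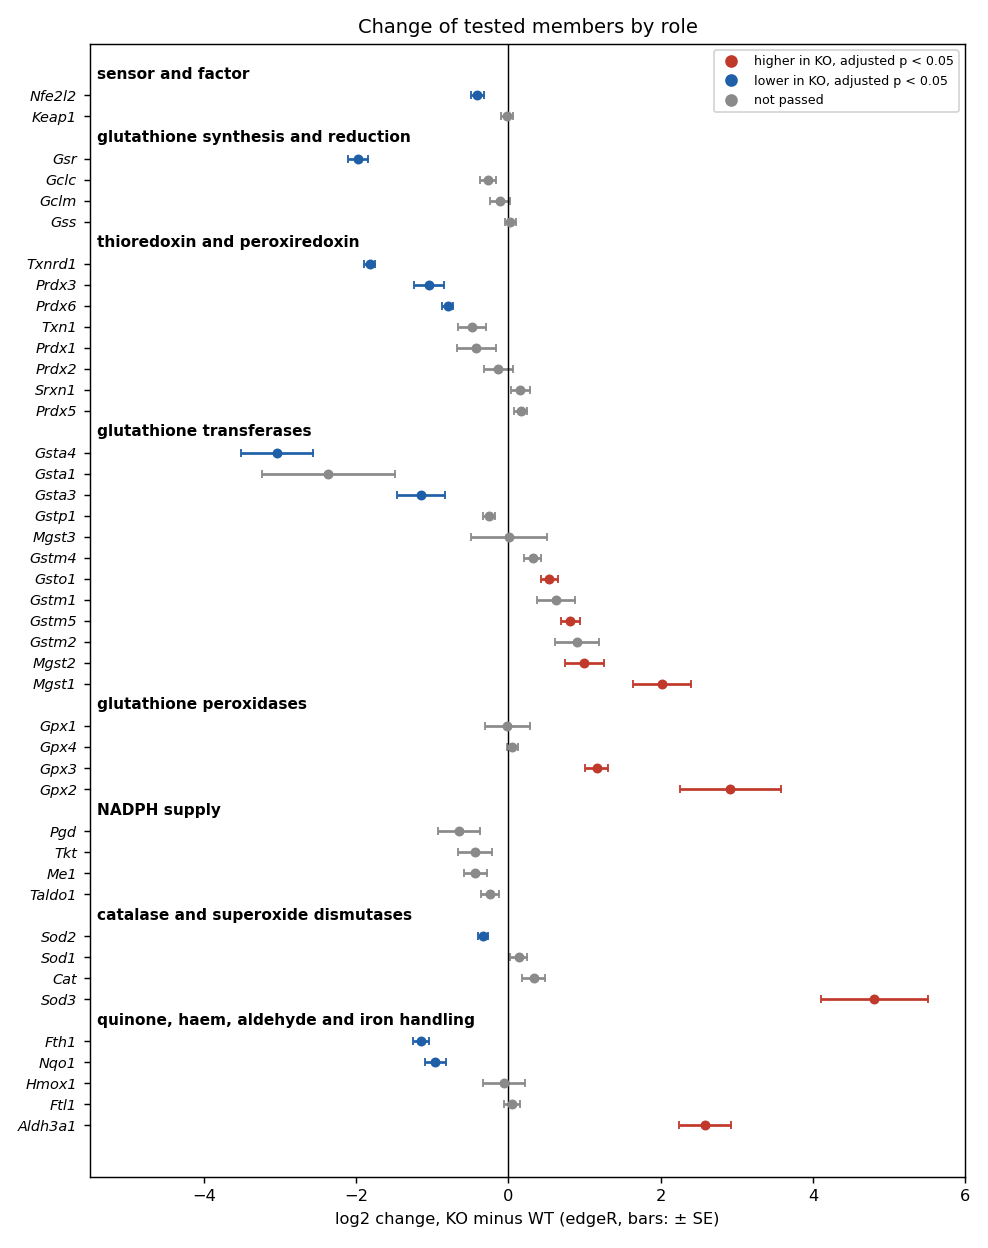
Log2 change in KO against WT for the tested genes, with 1 left out, grouped by role, with the standard error as bars and colour for the call at an adjusted p of 0.05. Gsta4, Gsr and Txnrd1 are the called genes furthest to the left (-3.04, -1.97 and -1.82), and Sod3 and Gpx2 are furthest to the right (4.81 and 2.92).

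The promoters of these genes were searched for the core of the antioxidant response element, TGACNNNGC, on both strands in windows from 250 bases before to 50 bases after each RefSeq start site (GRCm38.p6). A window was found for 39 members, and none was used for Gsr, Gclc, Sod3, Aldh3a1, Hmox1, Gsta4 and Prdx6. A match stood in the windows of 12 of the 39 members (30.8%) and of 1754 of 10353 tested genes (16.9%). Among members with a window the match was present in 3 of 7 that fell, 2 of 6 that rose and 7 of 24 that did not pass. The stretches below show the match in capitals, 5′ to 3′ on the gene's own strand and ending at or before the start site, for the 5 called members that hold one. Those of Gclm and Prdx1, which hold a match and did not pass, were added after their values were seen, for comparison. A match in these letters is a description and not a shown binding site.

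Txnrd1, lower in KO, match starting 92 bases before the start, opposite strand, chr10:82859074-82859162, plus strand: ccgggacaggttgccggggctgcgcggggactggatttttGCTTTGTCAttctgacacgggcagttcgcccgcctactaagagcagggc
Nfe2l2, lower, 240 bases before the start, gene strand, chr2:75704855-75704913, minus strand: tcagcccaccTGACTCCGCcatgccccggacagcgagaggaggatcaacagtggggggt
Gsta3, lower, 121 bases before the start, gene strand, chr1:21240424-21240512, plus strand: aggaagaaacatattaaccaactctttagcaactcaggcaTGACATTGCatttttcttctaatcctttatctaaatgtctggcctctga
Gstm5, higher, 42 bases before the start, gene strand, chr3:107895772-107895853, plus strand: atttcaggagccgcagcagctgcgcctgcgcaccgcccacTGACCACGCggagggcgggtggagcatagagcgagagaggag
Mgst1, higher, 56 bases before the start, opposite strand, chr6:138140431-138140519, plus strand: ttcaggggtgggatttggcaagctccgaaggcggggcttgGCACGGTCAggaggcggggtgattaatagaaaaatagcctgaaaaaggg
Gclm, not passed, 134 bases before the start, opposite strand, chr3:122245383-122245471, plus strand: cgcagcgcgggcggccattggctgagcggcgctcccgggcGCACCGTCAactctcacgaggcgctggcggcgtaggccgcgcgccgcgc
Prdx1, not passed, 133 bases before the start, opposite strand, chr4:116685426-116685514, plus strand: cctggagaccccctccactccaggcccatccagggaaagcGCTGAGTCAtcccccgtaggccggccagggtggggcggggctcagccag

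Distance from the start varied within each group of calls. Among members that did not pass and are not shown, Me1 and Sod1 hold a match at 6 and 56 bases before the start. Pgd and Srxn1, which also did not pass, hold a match past the start, at positions 4 and 29 counted from it.

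The first question was whether NRF2 and its sensor differed at the transcript level. Nfe2l2 (chromosome 2, 75675513 to 75704663) was at 262, 261 and 258 CPM in WT1, WT2 and WT3, against 185 and 208 CPM in the KO libraries 1 and 2. Both KO values lay below the WT range. On the log2 scale it fell by 0.41, with a standard error (SE) of 0.082, or 1.33-fold (adjusted p = 0.0154). This call did not survive the loss of WT1, WT2 or WT3 (adjusted p = 0.0704 to 0.0797; range over its alternatives 5.34e-05 to 0.144). Keap1 (chromosome 9, 21225372 to 21239332) was at 61.7, 56.9 and 61.6 CPM in WT and 61.8 and 56.5 CPM in KO1 and KO2. Its log2 change was -0.02 ± 0.079 (adjusted p = 0.843), and the KO values lay just outside the WT range on opposite sides. The ratio of Nfe2l2 to Keap1 in TPM was 5.71 to 6.30 in WT and 3.97 and 4.89 in KO1 and KO2.

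Of the 4 genes of glutathione synthesis and reduction, Gsr fell and the 3 genes of synthesis did not pass. Gsr (chromosome 8, 33653238 to 33698162), which returns oxidised glutathione to its reduced form, was at 56.7, 55.6 and 57.3 CPM in WT1, WT2 and WT3, against 16.3 and 12.5 CPM in the KO libraries 1 and 2. It fell by 1.97 ± 0.13 on the log2 scale, 3.92-fold (adjusted p = 0.00165), and the call was kept under all 16 alternatives. Gclc, the catalytic subunit of the rate-limiting ligase and the member of this group with the highest level per length, was at 115, 104 and 118 CPM in WT and 84.9 and 101 CPM in KO. The KO values lay below the WT range, and the log2 change was -0.27 ± 0.11 (adjusted p = 0.0995). Gclm, the modifier subunit of the same ligase, had values that overlapped between groups, with a log2 change of -0.11 ± 0.13 (adjusted p = 0.513). Gss, which adds glycine to finish the tripeptide, was at 34.9 to 36.1 CPM in WT and 36.7 and 35.5 CPM in KO, with a log2 change of 0.02 ± 0.072 (adjusted p = 0.833). Per length, Gsr stood above Gss in each WT library (ratio 1.12 to 1.19) and below it in both KO libraries (0.317 and 0.256).

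The thioredoxin system showed a similar picture at its reductase. Txnrd1 (chromosome 10, 82833951 to 82897724), the selenoenzyme that reduces cytosolic thioredoxin, was at 204, 193 and 207 CPM in WT1, WT2 and WT3, against 56.0 and 57.9 CPM in the KO libraries 1 and 2. The KO libraries lay close together here, unlike for many members. It fell by 1.82 ± 0.076 on the log2 scale, 3.54-fold (adjusted p = 0.000701), with a log2 change between -1.85 and -1.79 over its alternatives. Its substrate Txn1, cytosolic thioredoxin, was at 269, 262 and 278 CPM in WT and 232 and 153 CPM in KO (log2 change -0.48 ± 0.18, adjusted p = 0.0848). Srxn1, the sulfiredoxin that repairs overoxidised peroxiredoxins and a well known NRF2 target, overlapped between groups, at 30.8 to 35.1 CPM in WT and 41.2 and 32.8 CPM in KO (0.15 ± 0.13, adjusted p = 0.361). The ratio of Txnrd1 to Txn1 in TPM was 0.219 to 0.226 in WT and 0.0723 and 0.112 in KO1 and KO2.

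Of the 5 peroxiredoxins, thiol peroxidases that remove hydrogen peroxide, 2 fell and 3 did not pass. Prdx6 (chromosome 1, 161240112 to 161251210), which also acts on lipid peroxides and uses glutathione, was at 359, 369 and 363 CPM in WT and 210 and 209 CPM in KO. The KO libraries were again nearly equal, and it fell by 0.80 ± 0.073 on the log2 scale, 1.74-fold (adjusted p = 0.00263). Prdx3, the mitochondrial form, was at 87.6, 83.1 and 88.3 CPM in WT and 51.1 and 32.4 CPM in KO and fell by 1.05 ± 0.20, 2.07-fold (adjusted p = 0.0126). Its call did not survive the loss of WT1, WT2 or WT3 (adjusted p = 0.0502 to 0.0572; range over its alternatives 3.17e-06 to 0.0572). Prdx1, the most abundant peroxiredoxin per length, was at 568, 558 and 549.5 CPM in WT and 539 and 296 CPM in KO. Nearly all of its difference lay in KO2 (log2 change -0.42 ± 0.25, adjusted p = 0.231). Prdx2 and Prdx5 had log2 changes of -0.13 and 0.16 and did not pass (adjusted p = 0.601 and 0.171).

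**Figure D2:**
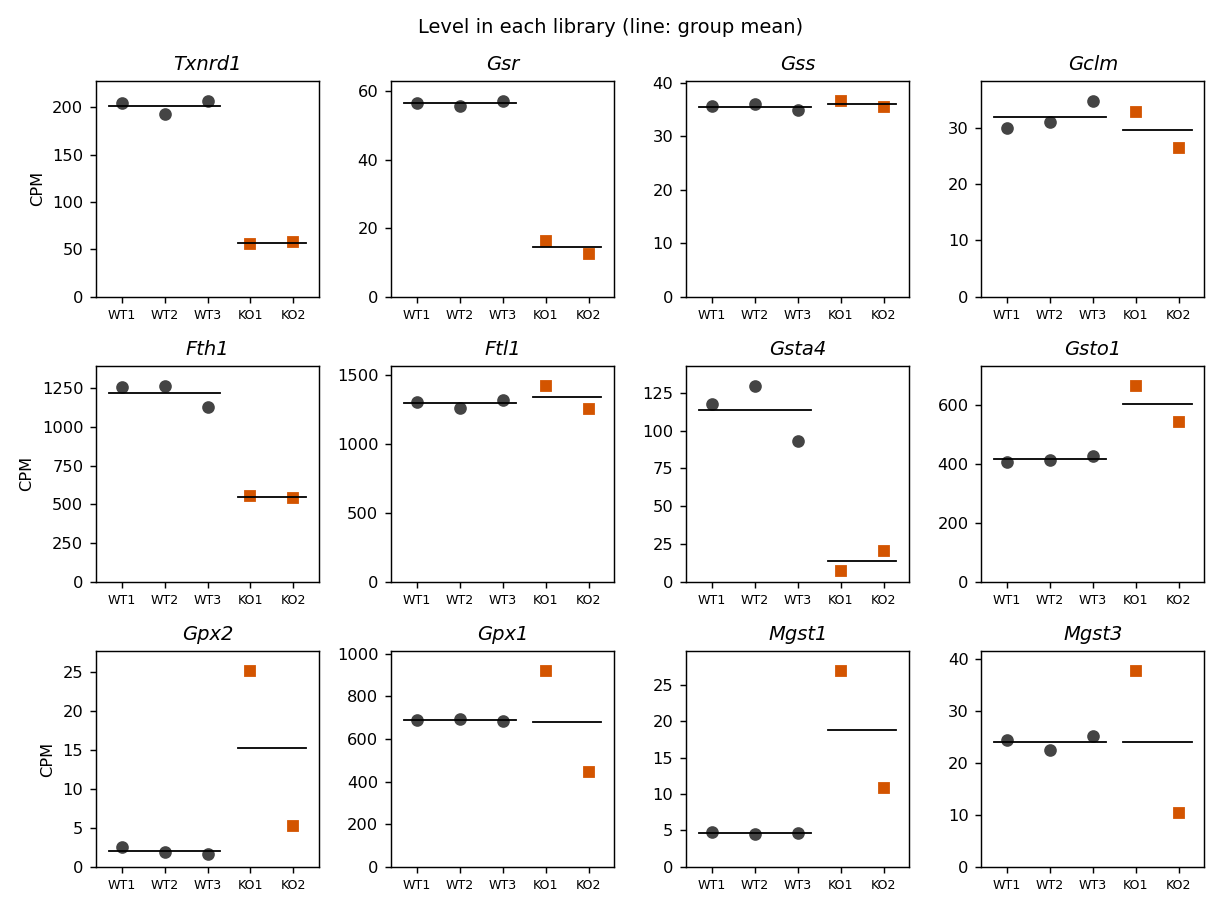
CPM of 12 members in each library, with WT as circles, KO as squares and a line at each group mean, on axes that start at 0. Txnrd1, Gsr and Fth1 are low in both KO libraries while Gss and Ftl1 are not, and for Gpx1 and Mgst3 the KO libraries lie on either side of the WT level.

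The glutathione transferases join glutathione to electrophiles. Of 12 tested, 4 rose, 2 fell and 6 did not pass, and without WT1, WT2 or WT3 the numbers were 1 higher and 1 lower each time. Of the 4 alpha genes 2 fell, 1 did not pass and 1 was not tested. No difference between classes was tested. Gsta4 (chromosome 9, 78191966 to 78209349), which conjugates the lipid peroxidation product 4-hydroxynonenal, was at 117, 130 and 93.1 CPM in WT1, WT2 and WT3, against 7.15 and 20.4 CPM in the KO libraries 1 and 2. It fell by 3.04 ± 0.47 on the log2 scale, 8.21-fold (adjusted p = 0.00735). No other member above 10 CPM in WT fell as far. The change was -2.48 without KO1 and -3.98 without KO2. Gsta3 was low throughout, at 1.17 to 1.31 CPM in WT and 0.44 and 0.68 CPM in KO, and fell by 1.15 ± 0.31 (adjusted p = 0.0341). That call did not survive the loss of WT1, WT2 or WT3 (adjusted p = 0.088 to 0.106; range over its alternatives 0.0176 to 0.258).

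Gsta1, a neighbour of Gsta4, had 26, 26 and 27 counts in WT and 0 and 10 in KO1 and KO2 (log2 change -2.37 ± 0.87, adjusted p = 0.0801). Gsta2, not tested, had 24 counts in all in WT and 6 in KO, a KO to WT ratio of 0.376 (95% counting interval 0.126 to 0.943, counting error only). Of the 50-base stretches of Gsta1 transcripts 89.7% also occur in another coding gene, against 0% for Gsta3 and Gsta4, so how reads were divided between Gsta1, Gsta2 and their copies is uncertain.

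Of the 8 tested transferases of the mu, omega and membrane classes 4 rose and 4 did not pass, and over all tested genes 20.4% were higher. Gstp1, of the pi class, did not pass. The mu genes Gstm1, Gstm2, Gstm4 and Gstm5 lie in a cluster on chromosome 3 (107895854 to 108045179), with Gstm7, Gstm6 and Gstm3 between Gstm5 and Gstm2. In each of the 4 both KO values were above every WT value, as in 4207 of 12957 tested genes. Groups did not overlap in one direction or the other for 66.4% of all tested genes. Gstm5 alone of these passed, at 14.3, 12.5 and 12.5 CPM in WT and 25.1 and 20.9 CPM in KO, a rise of 0.81 ± 0.13 on the log2 scale (adjusted p = 0.00727). Gstm2 was at 10.3, 10.3 and 12.8 CPM in WT and 27.3 and 14.3 CPM in KO (0.90 ± 0.29, adjusted p = 0.0543). Gstm1 and Gstm4 had log2 changes of 0.63 and 0.32 (adjusted p = 0.104 and 0.0755). Gstm1 shares 9.36% and Gstm2 3.41% of its 50-base stretches with other coding genes, and Gstm4 and Gstm5 share 0%.

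Gsto1 (chromosome 19, 47854973 to 47864790), the omega transferase that also reduces dehydroascorbate, was the most abundant transferase per length. It was at 408, 415 and 427 CPM in WT and 666 and 542 CPM in KO, and rose by 0.54 ± 0.11, 1.45-fold (adjusted p = 0.0170). Its call did not survive the loss of WT1, WT2 or WT3 (adjusted p = 0.0734 to 0.0877; range over its alternatives 3.07e-05 to 0.129). Gstp1, the pi transferase, was at 190 to 198 CPM in WT and 172 and 153 CPM in KO (log2 change -0.26 ± 0.082, adjusted p = 0.0558). The ratio of Gsto1 to Gstp1 in TPM was 1.27 to 1.39 in WT and 2.38 and 2.17 in KO1 and KO2. Gstp1 shares 51.0% of its 50-base stretches with Gstp2, so its own level is less certain than that of Gsto1.

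The membrane transferases differed between the KO libraries. Mgst1 (chromosome 6, 138140527 to 138156755), a microsomal transferase and peroxidase that protects membranes, was at 4.73, 4.55 and 4.66 CPM in WT and 26.9 and 10.8 CPM in KO1 and KO2, and rose by 2.02 ± 0.38, 4.05-fold (adjusted p = 0.0129). The rise was 1.20 without KO1 and 2.54 without KO2, and the call did not survive the loss of WT1, WT2 or WT3 (adjusted p = 0.0594 to 0.0611; range over its alternatives 3.1e-06 to 0.0611). Mgst2, which can also make leukotriene C4, was at 7.50, 7.36 and 8.30 CPM in WT and 19.7 and 11.1 CPM in KO. It rose by 0.998 ± 0.25 (adjusted p = 0.0292), 0.52 without KO1 and 1.36 without KO2, and was not called without WT1, WT2 or WT3 (adjusted p = 0.0874 to 0.105; range over its alternatives 4.88e-05 to 0.105). Mgst3 was at 22.5 to 25.2 CPM in WT, 37.8 in KO1 and 10.4 in KO2 (log2 change 0.00 ± 0.50, adjusted p = 0.996). Gstt1, a theta transferase that was not tested, had 0, 1 and 0 counts in WT and 7 and 9 in KO, a KO to WT ratio of 24.0 (95% counting interval 3.73 to 1010).

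Of the 4 glutathione peroxidases, which reduce peroxides with glutathione, the scarce forms rose and the abundant forms did not pass. Gpx2 (chromosome 12, 76792335 to 76795554), an epithelial selenoprotein and NRF2 target, was at 2.49, 1.84 and 1.70 CPM in WT1, WT2 and WT3, against 25.1 and 5.27 CPM in the KO libraries 1 and 2. It rose by 2.92 ± 0.66, 7.55-fold (adjusted p = 0.0213), but KO1 stood 4.77 times above KO2. The rise was 1.38 without KO1 and 3.65 without KO2, and the call did not hold without WT1, WT2 or WT3 (adjusted p = 0.0755 to 0.0868; range over its alternatives 4.2e-06 to 0.0868). Gpx3, the secreted plasma form, was at 3.95, 4.40 and 4.95 CPM in WT and 9.69 and 10.1 CPM in KO. The KO libraries were close to each other, and it rose by 1.16 ± 0.15, 2.23-fold (adjusted p = 0.00509), a call kept under all 16 alternatives.

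Gpx1, the main cytosolic peroxidase and the third most abundant member per length in WT, was at 691, 692 and 683 CPM in WT, 919 in KO1 and 444 in KO2. The groups had nearly the same mean (log2 change -0.01 ± 0.30, adjusted p = 0.974) with KO values on either side of a narrow WT range. Gpx4, which reduces lipid hydroperoxides and guards against ferroptosis, was at 190 to 192 CPM in WT and 206 and 189 CPM in KO (0.05 ± 0.074, adjusted p = 0.625). Gpx2 and Gpx4 share 0% of their 50-base stretches with other coding genes. With transcripts of other genes that are not coding they share 18.9% and 51.4%.

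None of the 5 genes grouped here under NADPH supply passed, although both KO values were under all 3 WT values for each of them. Among all members the groups did not overlap for 33 of 44, and among all tested genes for 66.4%. Both KO values lay below the WT range for 20 of the 44 members and for 4399 of 12957 tested genes. Tkt, the transketolase of the pentose phosphate pathway and the most abundant of the 5 per length, was at 696, 694 and 674 CPM in WT and 633 and 381 CPM in KO (log2 change -0.44 ± 0.22, adjusted p = 0.161). Pgd, a dehydrogenase of the same pathway, had the largest difference at 355 to 367 CPM in WT and 301 and 155 CPM in KO (-0.66 ± 0.28, adjusted p = 0.111). Me1, malic enzyme, and Taldo1, transaldolase, had log2 changes of -0.44 and -0.24 (adjusted p = 0.0703 and 0.145). In each of the 5 the deficit was larger in KO2 than in KO1, with role medians of -0.85 and -0.21.

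Among the enzymes that act on superoxide and hydrogen peroxide directly, 1 rose, 1 fell and 2 did not pass. Sod2, the mitochondrial manganese superoxide dismutase, was at 81.3, 80.3 and 80.7 CPM in WT and 66.3 and 61.8 CPM in KO and fell by 0.34 ± 0.067, 1.26-fold (adjusted p = 0.0146). Leaving out WT1, WT2 or WT3 ended that call (adjusted p = 0.0694 to 0.0776; range over its alternatives 0.000623 to 0.149). Sod1, the cytosolic form and the most abundant of the 4 per length, overlapped between groups at 39.6, 35.9 and 37.6 CPM in WT and 37.5 and 45.3 CPM in KO (0.14 ± 0.11, adjusted p = 0.360). Cat, catalase of peroxisomes, was at 99.7 to 103 CPM in WT and 149 and 105 CPM in KO (0.33 ± 0.15, adjusted p = 0.134).

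Sod3 (chromosome 5, 52363804 to 52369738), the extracellular form, went from 0, 1 and 1 counts in WT1, WT2 and WT3 to 15 and 29 counts in KO1 and KO2, a KO to WT ratio of 33.1 (95% counting interval 8.62 to 281). It passed the test (adjusted p = 0.00649) and did so in each of the 13 alternatives in which it was measured. Its level stayed low, near 1 TPM in KO. Some fibroblast markers also rose in KO. Of 12, 10 were tested and 5 rose, against 20.4% higher over all tested genes. Without WT1, WT2 and WT3, 1, 2 and 1 were higher, and 2 with the replicate number as a block. Postn was at 0.03 to 0.13 TPM in WT and 10.5 and 4.29 TPM in KO1 and KO2 and Col1a1 at 0.05 to 0.53 and 6.18 and 1.38 TPM, while Fap and Lum were at 0 to 0.60 TPM in every library. The part of these cells in the rise of Sod3, Gpx3 or the mu transferases was not tested. In bulk RNA a change in the share of a cell type and a change of level per cell cannot be told apart.

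The remaining members handle quinones, haem, aldehydes and iron, and 2 fell, 1 rose and 2 did not pass. Nqo1 (chromosome 8, 107385118 to 107403205), the quinone reductase most often used as a readout of NRF2, was at 46.9, 44.4 and 43.97 CPM in WT and 26.4 and 19.96 CPM in KO. It fell by 0.96 ± 0.14, 1.94-fold (adjusted p = 0.00621), under all 16 alternatives. Hmox1, which breaks down haem, was at 148, 168 and 129 CPM in WT, 99.2 in KO1 and 185 in KO2, on opposite sides of the WT range (log2 change -0.06 ± 0.28, adjusted p = 0.878). Aldh3a1, an aldehyde dehydrogenase best known from cornea, was at 0.93, 0.44 and 0.73 CPM in WT and 4.70 and 3.67 CPM in KO and rose by 2.58 ± 0.34, 5.97-fold (adjusted p = 0.00503).

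The subunits of ferritin, the iron storage shell, went separate ways. Fth1 (chromosome 19, 9980600 to 9985111), the heavy subunit with ferroxidase activity, was at 1258, 1266 and 1126 CPM in WT and 557 and 538 CPM in KO. It fell by 1.15 ± 0.11, 2.22-fold (adjusted p = 0.00264), and was called under all 16 alternatives. Ftl1, the light subunit and the most abundant member per length, was at 1306, 1259 and 1318 CPM in WT and 1422 and 1255 CPM in KO (0.05 ± 0.11, adjusted p = 0.739). The ratio of Ftl1 to Fth1 in TPM was 0.964 to 1.14 in WT and 2.48 and 2.26 in KO1 and KO2, with no overlap. Ftl1 shares 69.7% of its 50-base stretches with the copy Ftl1-ps1 and 46.1% with other transcripts that are not coding. Fth1 shares 0% with other coding genes and 3.59% with other transcripts.

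Summed over the 46 genes, transcripts of these systems came to 13326 to 13748 TPM in WT and to 12450 and 9745 TPM in KO1 and KO2. The sum of quinone, haem, aldehyde and iron genes, most of it ferritin, was 5473 to 5770 TPM in WT and 4329 and 4056 TPM in KO. Thioredoxin and peroxiredoxin genes summed to 2396 to 2428 TPM in WT and 2033 and 1394 TPM in KO. Peroxidase genes stood above WT in KO1 and below it in KO2, at 1849 to 1871 TPM in WT and 2363 and 1370 TPM in KO1 and KO2, following Gpx1.

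**Figure D3:**
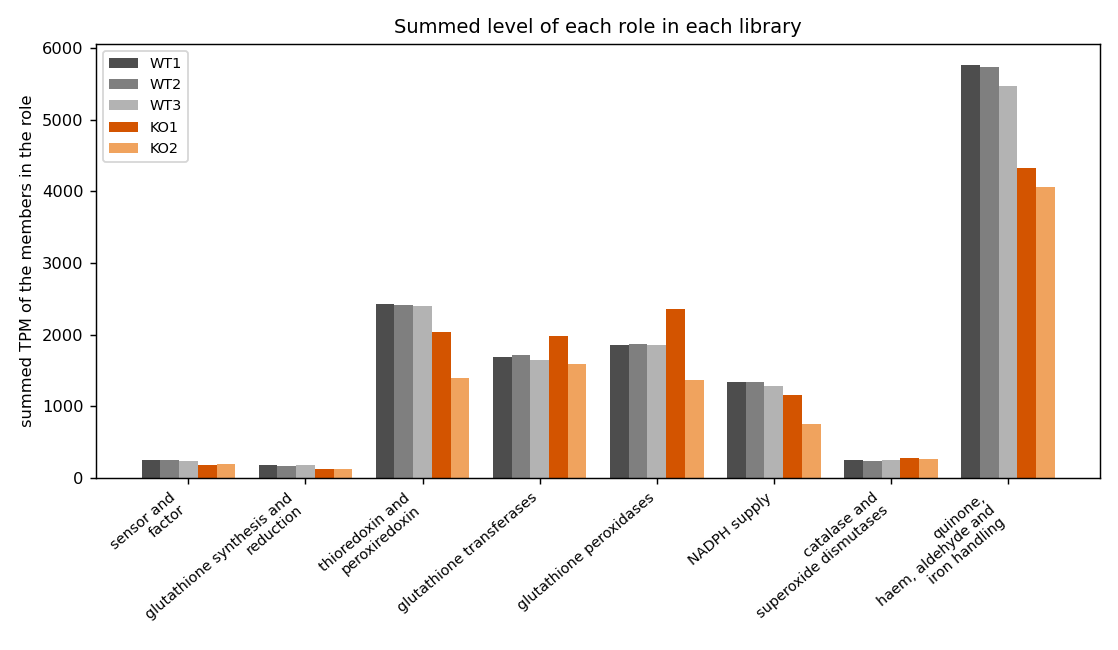
Summed TPM of the members of each role in the 3 WT (grey) and 2 KO (orange) libraries, on an axis that starts at 0. The iron and quinone group falls from 5473 to 5770 TPM in WT to 4329 and 4056 TPM in KO, while the peroxidase and transferase groups are higher in KO1 than in KO2.

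The order of levels within the system changed for some genes. In both groups Ftl1 was first, and Fth1 went from rank 2 to rank 3 behind Gpx1. Gsta4 went from rank 14 of 46 in WT (244 TPM) to rank 33 in KO (29.2 TPM), Gsr from 27 to 40 and Txnrd1 from 21 to 30. Mgst1 moved from rank 38 (9.99 TPM) to rank 27 (39.9 TPM) and Gpx2 from 40 to 34. Neighbours in this order, such as Ftl1 and Fth1 or Gpx4 and Txn1 in WT, lie within the range of their libraries of each other or close to it, so single steps carry little information.

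For 7 of 44 members (15.9%) KO1 and KO2 lay outside the WT range on opposite sides, against 12.5% of all tested genes. These were Keap1, Prdx2, Mgst3, Gpx1, Gpx4, Ftl1 and Hmox1, with KO1 above and KO2 below in 6 of them and the reverse for Hmox1. The share is near that of all genes, and Keap1 and Gpx4 lay barely outside the WT range. The difference between KO1 and KO2 was largest, among members of at least 1 CPM on average, for Gpx2. By contrast the KO libraries were within 10% of each other for the called members Txnrd1, Prdx6, Fth1, Gpx3 and Sod2. The same held for Keap1, Gss, Prdx5, Gstm4 and Gpx4, which did not pass. Proliferation markers moved with the groups and the libraries. Of 8, 7 fell and Mki67 did not pass, against 20.4% lower over all tested genes. Without WT1, WT2 or WT3, 3 were lower each time. Their summed level was 951 to 1030 TPM in WT, 398 TPM in KO1 and 215 TPM in KO2. Prdx1, Prdx2, Prdx3 and the genes grouped under NADPH supply were lower in KO2 than in KO1. So were Gsto1, Gstm5, Mgst1, Mgst2, Gpx2 and Aldh3a1, which rose in KO, but not Gpx3 and Sod3, which also rose. The part of proliferation in these values was not tested.

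**Figure D4:**
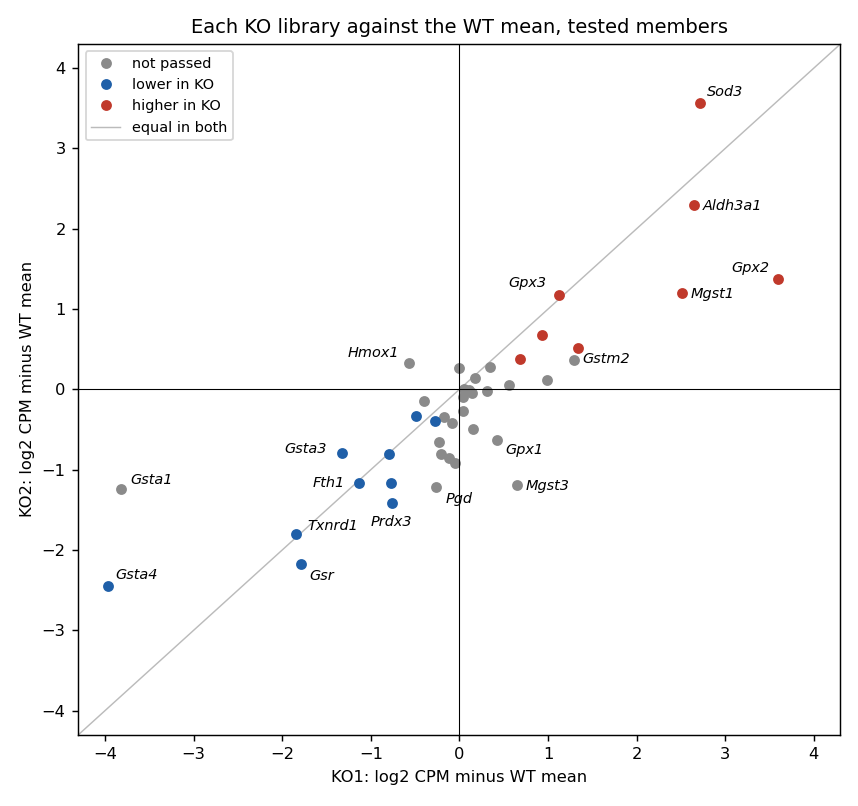
Log2 CPM (with a small prior count, in the form edgeR uses, which draws low genes such as Sod3 and Gsta1 toward 0) of each tested member, with 1 left out, minus the WT mean, KO1 on the horizontal and KO2 on the vertical axis, coloured by call, with a line where both are equal. Txnrd1, Fth1 and Gpx3 lie on the line, Gpx2 and Mgst1 lie right of it, and Mgst3 and Gpx1 fall in the quadrant where KO1 is above and KO2 below WT.

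A further 102 genes of the same systems were listed, 98 of them in the table and 89 tested. Of these, 16 rose, 20 fell and 53 did not pass, a share of 40.4% called that is again that of the whole table (40.8%). Without WT1, WT2 or WT3 the numbers were 6, 6 and 6 higher and 5, 8 and 8 lower. Without KO1 they were 24 and 37, and without KO2 29 and 31.

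Among 15 partners and regulators of NRF2, 3 rose, 3 fell and 9 did not pass. Leaving out any 1 WT library gave 2 higher and 0 lower. Nfe2l1, the related factor NRF1 that binds the same elements and controls proteasome genes, was at 391.9, 402 and 374 CPM in WT and 641 and 678 CPM in KO and rose by 0.76 ± 0.083 (adjusted p = 0.00367). Nfe2l3, another member of the family, was at 10.6, 12.0 and 8.15 CPM in WT and 28.7 and 28.1 CPM in KO and rose by 1.47 ± 0.17 (adjusted p = 0.00402). The call of Nfe2l1 was lost with the replicate number as a block (adjusted p = 0.066, the highest of its alternatives, from 4.7e-19), and that of Nfe2l3 was kept under all 16 alternatives. Cul3, the ligase scaffold that KEAP1 works with, and Palb2, a KEAP1-binding repair protein, changed by -0.34 and -1.07, and neither call held with 2 WT libraries (adjusted p = 0.0642 to 0.105 for Cul3, range over its alternatives 0.00159 to 0.14, and 0.0712 to 0.0881 for Palb2, range 0.000131 to 0.0881). Sqstm1, the autophagy receptor that can trap KEAP1, named after its values were seen, was at 209 to 213 CPM in WT, 182 in KO1 and 437 in KO2, and did not pass (adjusted p = 0.249).

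Of 10 tested genes of cystine uptake and glutathione turnover 1 rose, 3 fell and 6 did not pass. Oplah, the 5-oxoprolinase that returns glutamate from broken-down glutathione, was at 14.3, 16.8 and 12.4 CPM in WT and 81.7 and 112 CPM in KO. It rose by 2.74 ± 0.19, 6.68-fold (adjusted p = 0.00174). Esd, Chac2 and Lap3 changed by -0.61, -0.56 and -0.53, and without at least 1 of the WT libraries each of these calls was lost (highest adjusted p = 0.0578, 0.0987 and 0.119; ranges over their alternatives 8.93e-06 to 0.0871, 0.00426 to 0.149 and 5.25e-05 to 0.119). Slc7a11, the cystine carrier, and Chac1, which cleaves glutathione, named after their values were seen, were low in KO1 and not in KO2. Slc7a11 was at 45.96 to 51.2 CPM in WT, 12.0 in KO1 and 51.3 in KO2 (adjusted p = 0.422), and Chac1 at 91.8 to 109, 33.9 and 119 CPM (adjusted p = 0.595).

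Of 12 further transferases and peroxidases tested 4 rose, 2 fell and 6 did not pass. Gstp3, a pi transferase beside Gstp1, was at 6.43, 7.50 and 6.26 CPM in WT and 31.0 and 51.0 CPM in KO and rose by 2.61 ± 0.23 (adjusted p = 0.00255). It shares 0% of its 50-base stretches with other coding genes, and its ratio to Gstp1 in TPM was 0.0335 to 0.0378 in WT and 0.182 and 0.332 in KO1 and KO2. Gstm6 and Gstk1 rose by 1.297 and 0.94, calls that were lost without any 1 WT library (highest adjusted p = 0.098 and 0.0881; ranges over their alternatives 0.000259 to 0.098 and 3.64e-05 to 0.0881), and Gstcd fell by 0.99 (adjusted p = 0.00253).

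Of 14 glutaredoxin and other thioredoxin genes 1 rose, 2 fell and 11 did not pass. Msrb1, a methionine sulfoxide reductase, changed by 0.82, and Txnrd2, the mitochondrial thioredoxin reductase, and Glrx5 by -0.70 and -0.32. Each of these calls was lost without at least 1 of the WT libraries (highest adjusted p without a WT library 0.0571, 0.0932 and 0.0763; ranges over their alternatives 6.13e-06 to 0.0571, 0.00444 to 0.187 and 0.00187 to 0.177). Among 12 further genes listed under NADPH enzymes 2 rose and 4 fell. Pgls, the lactonase of the pentose phosphate pathway, went from 59.9, 65.9 and 62.9 CPM in WT to 112 and 138 CPM in KO and rose by 0.99 ± 0.11 (adjusted p = 0.00368), opposite in sign to Pgd. Me2 and the NAD kinase Nadk fell by 0.96 and 0.46 (adjusted p = 0.00393 and 0.00739), and H6pd, the enzyme of the endoplasmic reticulum, changed by 0.46. The call of Nadk was lost without 1 of the WT libraries (highest adjusted p = 0.0531, and 6.43e-08 to 0.12 over its alternatives), and that of H6pd without any of them (highest adjusted p = 0.0722, range 0.000556 to 0.112).

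Of 26 other NRF2 targets tested 5 rose, 6 fell and 15 did not pass. Without WT1, WT2 or WT3 only 1 was higher and 3, 4 and 4 were lower, and with the replicate number as a block 0 were higher and 2 lower. Akr1b8, an aldo-keto reductase, was at 105, 106 and 94.4 CPM in WT and 49.2 and 44.9 CPM in KO and fell by 1.11 ± 0.09 (adjusted p = 0.00218). Osgin1, an oxidative stress response gene, was at 24.3, 25.3 and 26.8 CPM in WT and 13.5 and 9.86 CPM in KO and fell by 1.13 ± 0.16 (adjusted p = 0.0057). Txnl1, a thioredoxin-like protein of the proteasome, fell by 0.47 (adjusted p = 0.00553; 0.0849 with the block, the highest of its alternatives, from 9.97e-09). Ephx1, the microsomal epoxide hydrolase, moved the other way, at 122, 123 and 129 CPM in WT and 198 and 190 CPM in KO, a rise of 0.64 ± 0.069 (adjusted p = 0.00357; 0.05 with the block, the highest of its alternatives, from 2.07e-12, and no longer called).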

How the data were processed

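RNA was sequenced from 3 WT and 2 KO libraries. The authors deposited expected counts, TPM and FPKM per gene for each library, and RSEM 1.3.1 is named in the submitters' processing notes. Deposited FPKM values were not used. Aligner and strand setting: not given in the sources used here. Expected counts (32.1 to 34% of values not whole, zeros included) were rounded to whole numbers, filtered with filterByExpr and scaled by TMM. They were tested with edgeR 4.0.16 by its quasi-likelihood test (R 4.3.3). Benjamini-Hochberg adjustment ran over all 12957 tested genes, with a threshold of 0.05. Deposited TPM served for levels between genes. Members and lists were chosen with earlier results of these data known. Of the further pathway genes, up to 4 in each list that passed with an average log2 CPM of at least 1 were named, by smallest p, and exceptions are marked. Deposited strands differed from GENCODE M21 for 5 members and are not printed. Shared 50-base stretches were counted in GENCODE M21 transcripts. Intervals on count ratios are exact, at 95%. The test was checked on simulated counts drawn with the same spread in both groups. Here the KO libraries spread more than the WT libraries, so that check cannot show how the test performs on these data. Alternatives used limma 3.58.1, DESeq2 1.42.0, other scalings, filters and pseudocounts, the replicate number as a block, and each library left out. The values of 1 member are not reported here, although it is included in the counts, medians and sums.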

Additional observations from a re-analysis of the deposited data

How the results depend on the processing

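Of the 18 called members, 10 kept their call without each WT library and 9 kept it under every alternative that gave a value. Over all genes 5286 passed, 3192 with a separate spread per group, 1598 with the replicate block and 8068 without KO2. Leaving out 1 library at a time gave 1957 to 8068 genes, 4 to 17 members higher and 6 to 22 lower. With a single KO library left, that library is assumed to vary like the WT libraries. With the replicate block 5 members were higher and 7 lower, and Gstm5 was among the calls lost (adjusted p = 0.0534). The labels share 2 replicate numbers between groups and do not say that they pair libraries, and deviations of same-numbered libraries correlated by 0.007 and 0.068. Among members not called with all libraries, the direction turned and the test was passed on the other side for Mgst3 (-1.21 without KO1, 0.66 without KO2), Prdx2 (0.16 without KO2, -0.50 without KO1) and Gpx1 (0.43 without KO2, -0.64 without KO1). Hmox1 also changed sign, at 0.31 without KO1 (adjusted p = 0.0615) and -0.57 without KO2 (0.0078), and its adjusted p ranged from 0.0078 to 0.94. The causes of these changes were not tested. Genes with few counts (Gsta1, Gsta2, Gsta3, Gstt1, Sod3) are limited by depth.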
